A study of Mus musculus with 4 samples.

Results

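Interferon-stimulated genes are the genes that cells switch on when interferon reaches its receptor, and 37 of them, taken from a list of names, were examined among the 21025 gene rows of the series. The symbols in the files matched 35, and 2 were found by RefSeq accession under older symbols, Trim30a as Trim30 and Herc6 as Herc5. PolyA RNA was sequenced in 4 libraries from liver natural killer (NK) cells, innate lymphocytes that kill infected or transformed cells, of C57BL/6 mice. TRAIL+ cells (2 libraries) were sorted for the death ligand TRAIL and against CD49b, the alpha-2 integrin chain, and CD49b+ cells (2 libraries) the other way round, both within a TCRb-, NK1.1+, NKp46+ gate. No treatment, deletion or transgene is labelled for either group, although by its title the series concerns the need for Nfil3, a transcription factor, in NK cells. Age and number of mice are not labelled, nor whether replicates are separate animals, so the p-values measure no more than how these libraries vary, and that may be technical.

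Type I interferons act through the receptor chains Ifnar1 and Ifnar2 and the kinases Jak1 and Tyk2, which activate a transcription factor complex that includes Stat2 and Irf9. That complex binds the interferon-stimulated response element (ISRE), a short DNA motif near the start of many such genes. Interferon gamma acts through Ifngr1 and Ifngr2, Jak1 and Jak2, and its signal reaches a different motif, the gamma-activated site (GAS). Their products sense viral RNA, block translation, mark proteins with the ubiquitin-like protein ISG15, or guard membranes, and many are kept at a low tonic level in lymphocytes without infection.

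Levels are RPKM, reads relative to gene length and library size, so that levels of different genes can be compared per length. The library sizes behind these values, worked out from their ratios, were 3786497 to 4232967 reads. At these sizes 1 RPKM equalled 7.57 to 8.47 reads for a length of 2000 bases. Whole reads recovered for each gene summed to more than that size in each library, 4092191 to 4580651. The sort genes fitted the labels: Tnfsf10 (TRAIL) stood at 208 and 189 RPKM in TRAIL+ and at 7.26 and 6.94 in CD49b+ cells, and Itga2 (CD49b) at 5.26 and 1.55 against 52.1 and 37.0. The shared NK genes Ncr1 (NKp46) and Klrb1c (NK1.1) lay between 901 and 1253 RPKM in every library. A minimum of 1 RPKM in 2 libraries left 10047 genes, which were tested with limma on log2(RPKM + 1), and a gene is said to rise or fall only with a Benjamini-Hochberg adjusted p below 0.05. Log2 fold changes (TRAIL+ minus CD49b+, ± SE) are on that scale, where low genes appear to change less than they did, and a plain fold divides the mean RPKM of one group by that of the other. Fewer cells that express a gene and less RNA per cell cannot be told apart in such bulk libraries.

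Of the 37 genes, 35 passed the minimum, 9 of these rose in TRAIL+ cells, 0 fell and 26 did not pass the test. Across all tested genes, 4.76% rose and 3.86% fell, and 25.7% of the 35 rose, a description with no test since the list was not drawn up independently of these data. At an unadjusted p below 0.05 in limma, 14 were higher and 1 was lower, and voom on the recovered reads also called 9 and 0. The genes that rose were Ifitm2, Isg20, Oas3, Ly6e, Isg15, Rtp4, Ifit1, Ifit3 and Gbp2. The median log2 fold change of the 35 was 0.41, beside 0.00 for all tested genes together, and 31 had a positive and 4 a negative value. With no RPKM minimum, 8 rose. In 20 of the 35 (57.1%) both TRAIL+ libraries lay above both CD49b+ libraries, and in 2 below them, beside 24.9% and 21.8% of all tested genes.

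The rise of Ifitm2, Isg20 and Oas3 was still called with any single library left out. The other 6 lost their call when either CD49b+ library was omitted, and here and later a pair of adjusted p-values for this omits CD49b+ replicate 1 first and CD49b+ replicate 2 second. In limma these were 0.327 and 0.159 for Ly6e, 0.0888 and 0.0647 for Isg15, and 0.0765 and 0.0631 for Rtp4. They were 0.122 and 0.114 for Ifit1, 0.341 and 0.146 for Ifit3, and 0.140 and 0.179 for Gbp2. Of the list, 4 genes rose with CD49b+ replicate 1 omitted, Ifitm3 being the added one, and 3 with CD49b+ replicate 2 omitted. With either TRAIL+ library omitted, 11 rose. Over all genes, the 478 higher and 388 lower calls became 245 and 198 or 256 and 211 when a CD49b+ library was omitted. They became 777 and 763 when TRAIL+ replicate 1 was omitted.

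**Figure D1:**
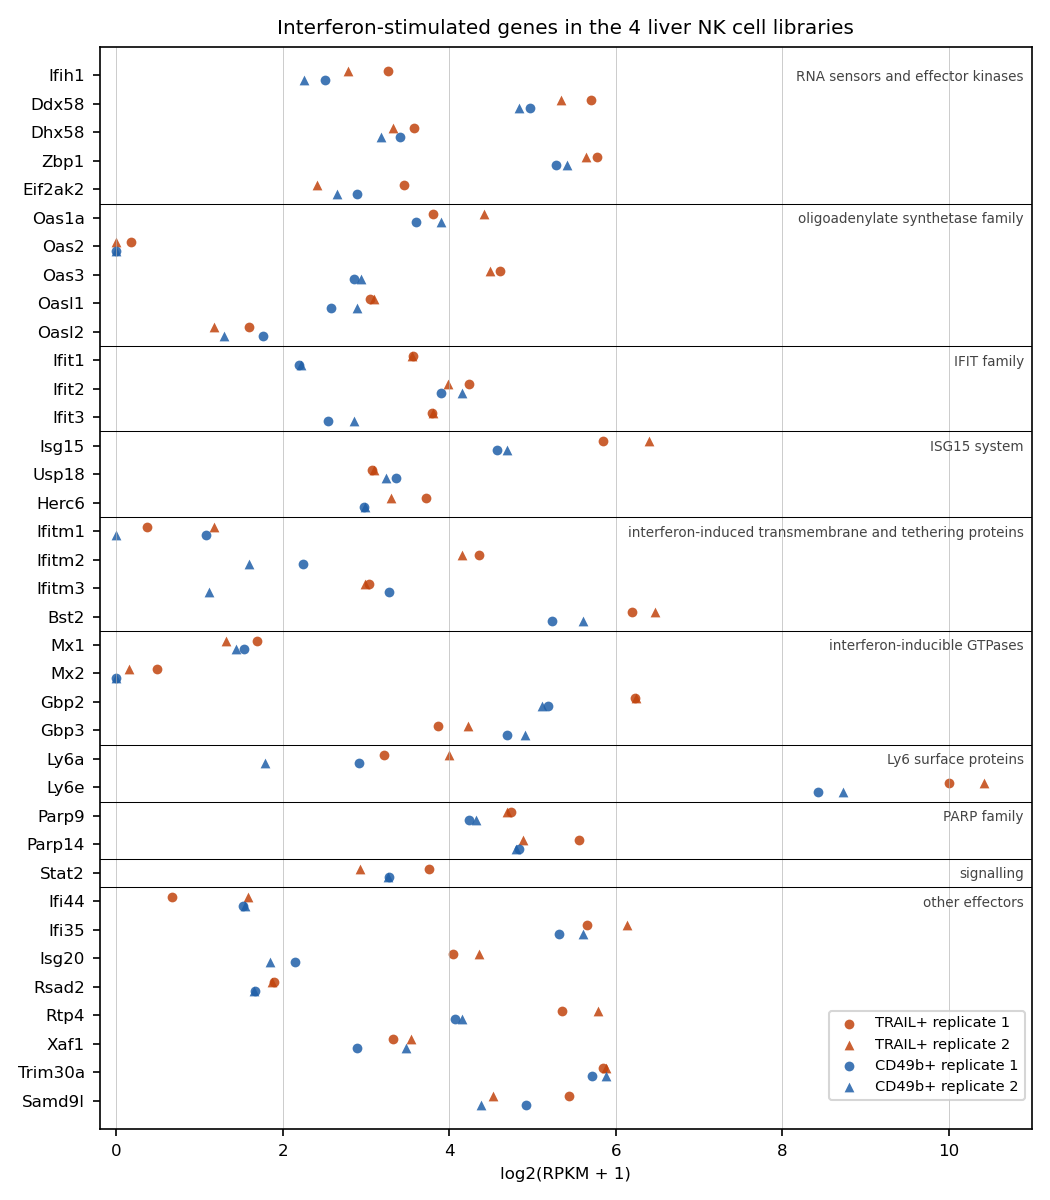
Level of each of the 37 genes in each library, as log2(RPKM + 1), ordered by role, with TRAIL+ libraries in orange-red and CD49b+ libraries in blue (circle: replicate 1, triangle: replicate 2). Ly6e lies far to the right of all others, and Oas2 and Mx2 lie at or near 0.

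Levels ranged widely. Ly6e alone made up 56.3% and 62.6% of the summed RPKM of the 37 genes in the TRAIL+ libraries and 40.8% and 45.2% in the CD49b+ libraries. The sum without Ly6e was 796 and 817 RPKM in TRAIL+ and 498 and 513 in CD49b+ cells. The median over all 37 genes, Oas2 and Mx2 included, was 12.9 and 14.9 RPKM in TRAIL+ and 8.72 and 8.07 in CD49b+ cells. That of all tested genes, which unlike the 37 had all passed the RPKM minimum, was 12.9 to 13.8 in the 4 libraries. In TRAIL+ cells, 24 and 22 of the 37 reached 10 RPKM, and 15 and 16 in CD49b+ cells.

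Markers of T cells also moved with the subsets: all 5 tested of 8 listed rose in TRAIL+ cells, and their summed level was 73.3 and 134 RPKM in TRAIL+ against 17.8 and 15.0 in CD49b+ libraries. Among them Cd3d stood at 30.0 and 59.9 against 10.4 and 10.1 RPKM, and Cd3e at 21.3 and 43.2 against 2.62 and 3.87. Omitting a CD49b+ library left 4 and 2 of the 5 called, and no RPKM minimum 3, with Cd3d at an adjusted p in limma of 0.0507 and 0.0566. Cd8a stood at 10.6 and 17.9 against 0.226 and 0 RPKM, Trat1 at 6.05 and 8.80 against 1.71 and 0.368, and Cd4 at 4.11 and 3.57 against 0.685 and 0.0819. Cd3g, a CD3 chain outside the marker list, also rose, by 6.59 in log2 (limma adjusted p = 0.000438). Its level was well above that of Cd3e, with a mean log2(RPKM + 1) over all libraries of 6.56 beside 3.52. The 3 listed markers that were not tested were near 0, with Cd5 at 0 to 0.590, Cd6 at 0.250 to 0.725 and Cd8b1 at 0 to 1.16 RPKM over all libraries. Plasmacytoid dendritic cells, known as strong makers of type I interferon, have Siglech as a defining marker, which stood at 0.307 and 0 RPKM in TRAIL+ and 1.77 and 0 in CD49b+ cells. The summed level of their 6 markers was 16.7 to 17.8 RPKM in TRAIL+ and 10.1 to 15.0 in CD49b+ cells, with Cox6a2 and Tcf4 the most abundant, and 1 of 3 tested, Pacsin1, rose. Markers of Kupffer cells and monocytes (Lyz2 and Cd68 the most abundant) had 0 of 8 tested that passed in limma (1 at an unadjusted p below 0.05, 0 in voom), and a median log2 fold change of 0.74. With replicate 1 of either subset omitted 2 of them rose, and 1 with TRAIL+ replicate 2 omitted. Their summed level was 111 and 144 RPKM in replicate 1 and 28.9 and 16.3 in replicate 2 of TRAIL+ and CD49b+ cells. The part of such cells in the results on interferon-stimulated genes was not tested.

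The DNA just before the start of the genes is shown for 6 that rose and hold the core of the ISRE. These 6 were picked for holding it, so that they share it is not a result. Each line gives the 160 bases before the RefSeq start (build GRCm38.p6), 5′ to 3′ on the strand of the gene, with matches to the ISRE core (GAAA, any 2 bases, GAAA) on either strand in capitals. They lie at chr4:156200819-156200978 (minus strand), chr5:120777660-120777819 (minus), chr19:34640729-34640888 (plus), chr19:34583369-34583528 (plus), chr7:140955962-140956121 (minus) and chr3:142620503-142620662 (plus).
Isg15: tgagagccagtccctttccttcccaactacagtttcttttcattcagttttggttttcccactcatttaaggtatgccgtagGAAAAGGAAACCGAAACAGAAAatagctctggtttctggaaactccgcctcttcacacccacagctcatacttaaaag
Oas3: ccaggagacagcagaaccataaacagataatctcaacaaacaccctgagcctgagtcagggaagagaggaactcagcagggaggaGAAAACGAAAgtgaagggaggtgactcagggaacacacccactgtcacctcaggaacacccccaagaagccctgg
Ifit1: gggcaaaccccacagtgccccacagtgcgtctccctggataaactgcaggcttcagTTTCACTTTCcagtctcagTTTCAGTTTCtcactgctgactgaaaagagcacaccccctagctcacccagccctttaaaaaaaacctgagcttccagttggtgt
Ifit3: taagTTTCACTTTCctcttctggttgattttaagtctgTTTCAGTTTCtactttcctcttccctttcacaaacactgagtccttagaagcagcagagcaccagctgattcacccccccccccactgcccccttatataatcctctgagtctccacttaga
Ifitm2: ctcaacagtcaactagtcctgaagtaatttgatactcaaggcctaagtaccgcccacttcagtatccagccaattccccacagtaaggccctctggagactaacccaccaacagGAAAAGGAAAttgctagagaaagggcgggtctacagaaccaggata
Gbp2: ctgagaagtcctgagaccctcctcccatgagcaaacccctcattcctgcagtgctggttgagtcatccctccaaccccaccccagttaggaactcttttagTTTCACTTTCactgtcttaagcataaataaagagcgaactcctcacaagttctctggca

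The Isg15 stretch holds 3 overlapping matches, Ifit1 and Ifit3 hold 2 each, and the other 3 hold 1. For comparison, Gbp3 and Oas1a did not pass the test and hold 2 overlapping matches each, Ifit2 did not pass and holds 0, and Isg20 rose and holds 0. These lie at chr3:142559884-142560043 (plus), chr5:120907526-120907685 (minus), chr19:34550534-34550693 (plus) and chr7:78913264-78913423 (plus).
Gbp3: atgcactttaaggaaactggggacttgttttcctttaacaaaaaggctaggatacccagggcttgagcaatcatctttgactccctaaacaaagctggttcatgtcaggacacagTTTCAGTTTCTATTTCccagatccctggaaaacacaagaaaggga
Oas1a: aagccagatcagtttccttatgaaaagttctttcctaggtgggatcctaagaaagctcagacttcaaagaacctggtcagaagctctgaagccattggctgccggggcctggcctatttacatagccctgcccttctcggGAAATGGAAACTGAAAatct
Ifit2: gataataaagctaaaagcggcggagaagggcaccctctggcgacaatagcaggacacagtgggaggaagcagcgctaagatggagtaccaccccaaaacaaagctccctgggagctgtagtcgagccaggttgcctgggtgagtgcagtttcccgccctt
Isg20: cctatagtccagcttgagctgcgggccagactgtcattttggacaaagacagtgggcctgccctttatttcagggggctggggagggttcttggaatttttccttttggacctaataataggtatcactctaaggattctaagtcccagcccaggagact

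RefSeq windows of 300 bases (250 before to 50 after the start) were at hand for 26 of the 37 genes. The ISRE core, searched on both strands, lay in at least 1 window of 16 of them, beside 3.99% of 27025 genes with such windows. It was found in 6 of the 7 risen genes with a window and in 10 of the 19 that did not pass. The GAS core TTCNNNGAA, which reads the same on both strands, lay in 7 of the 26 genes, beside 9.55% of all, and in 1 of the 7 risen genes, Isg20. A match describes the letters only, and no match says only that these letters are not in the window. No window was matched for Ly6e, Rtp4, Ly6a, Usp18, Zbp1, Dhx58, Parp9, Parp14, Mx1, Mx2 and Oas2.

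Of 4 tested transmembrane and tethering proteins, 1 rose. This was Ifitm2, of a family that blocks virus entry at endosomal membranes, which stood at 19.5 and 16.8 RPKM in TRAIL+ and 3.76 and 2.02 in CD49b+ cells. The groups were well apart, 6.29-fold by their means (4.83 to 8.98 with a library omitted), and the gene rose by 2.33 ± 0.28 in log2 (limma adjusted p = 0.00734). It rested on 90 and 15 reads. Ifitm3, its best-known relative, stood at 7.18 and 6.91 against 8.72 and 1.17 RPKM, so that the CD49b+ libraries lay on either side of TRAIL+. The gene had only 24 and 3 reads in CD49b+ replicates 1 and 2. It did not pass (0.81 ± 0.68, limma adjusted p = 0.645) but was called higher without CD49b+ replicate 1 (adjusted p = 0.0321). Ifitm1 was near the limit of detection, at 5 reads in the TRAIL+ and 4 in the CD49b+ group. Reads of close copies may be shared between rows, so single genes of the IFITM, IFIT, OAS, GBP and LY6 families are uncertain. Bst2, or tetherin, which holds budding virus particles at the cell surface, stood at 72.0 and 88.0 against 36.8 and 47.8 RPKM. Its groups did not overlap, and at 0.91 ± 0.20 in log2 it just missed the threshold (limma adjusted p = 0.0576), passing without TRAIL+ replicate 1 (0.0153).

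Ly6e, a lipid-anchored surface protein that limits the entry of some viruses, was by far the most abundant gene of the list. It stood at 1027 and 1369 RPKM in TRAIL+ and 342 and 424 in CD49b+ cells, or 3.13-fold more, and rose by 1.64 ± 0.25 in log2 (limma adjusted p = 0.0160). It ranked 39 and 38 among all rows in the TRAIL+ libraries, and 162 and 130 in the CD49b+ libraries. Ly6a, or Sca-1, a marker of stem cells and of interferon-exposed lymphocytes, stood at 8.27 and 14.9 against 6.53 and 2.44 RPKM. TRAIL+ libraries lay above, but the spread within each subset was large and it did not pass (1.25 ± 0.45, limma adjusted p = 0.204), passing without TRAIL+ replicate 1 (0.0477). Of the family copies, Ly6c2, a surface marker of mature lymphocytes and monocytes, went the other way, at 16.2 and 30.2 against 518 and 593 RPKM, 23.98-fold lower in TRAIL+ cells (limma adjusted p = 0.00118).

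The IFIT family, proteins that bind viral RNA and block its translation, split. Ifit1 stood at 10.9 and 10.7 RPKM in TRAIL+ and 3.58 and 3.66 in CD49b+ cells (2.98-fold, log2 fold change 1.35 ± 0.19, limma adjusted p = 0.0121). Ifit3 stood at 12.9 in both TRAIL+ libraries and at 4.84 and 6.23 in CD49b+ libraries (2.33-fold, 1.10 ± 0.20, limma adjusted p = 0.0310, and 0.0629 with no RPKM minimum). Ifit2, from the same cluster, stood at 17.8 and 14.9 against 14.0 and 16.7 RPKM, with overlapping groups and a 95% interval of its log2 fold change of -0.40 to 0.57. The ratio of Ifit1 to Ifit2 was 0.610 and 0.718 in TRAIL+ and 0.256 and 0.219 in CD49b+ libraries, and that of Ifit3 to Ifit2 0.723 and 0.868 against 0.346 and 0.372. No test was made of these ratios. Ifit1bl1, a copy of Ifit1 outside the 37, had the largest rise of the tested IFIT genes, at 39.7 and 57.0 against 5.76 and 9.20 RPKM (6.46-fold, 5.25 to 8.39 with 1 library left out, limma adjusted p = 0.00581).

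Of the oligoadenylate synthetases, which make short oligoadenylates when they meet double-stranded RNA, 1 of 4 tested rose. Oas3, the largest enzyme of the family, stood at 23.4 and 21.5 RPKM in TRAIL+ and 6.24 and 6.66 in CD49b+ cells (3.48-fold, log2 fold change 1.65 ± 0.18, limma adjusted p = 0.00503). These groups were far apart with little spread. Oas1a stood at 13.0 and 20.4 against 11.1 and 14.0 RPKM, with overlapping groups (0.36 ± 0.27, limma adjusted p = 0.585). Oasl1, a synthetase-like protein, stood at 7.26 and 7.56 against 4.99 and 6.44, and Oasl2 at 2.03 and 1.26 against 2.41 and 1.46. Oas2 had 2 reads in TRAIL+ replicate 1 and 0 in the other libraries, and was not tested.

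The ISG15 system attaches a small ubiquitin-like tag to proteins. Isg15, the tag itself, stood at 56.4 and 83.3 RPKM in TRAIL+ and 22.8 and 24.8 in CD49b+ cells, 2.94-fold apart, and rose by 1.49 ± 0.23 in log2 (limma adjusted p = 0.0160). Usp18, which removes the tag and also dampens the type I interferon receptor, lay slightly lower in both TRAIL+ libraries, at 7.44 and 7.56 against 9.28 and 8.42 RPKM. It did not pass, with a 95% interval of its log2 fold change of -0.68 to 0.26. Herc6, the ligase of mouse cells, stood at 12.2 and 8.82 against 6.86 and 6.95 (0.52 ± 0.22, limma adjusted p = 0.281). The activating enzyme Uba7 and the conjugating enzyme Ube2l6, both outside the 37, rose, at 40.4 and 34.4 against 16.9 and 21.5 RPKM (limma adjusted p = 0.0461) and at 16.1 and 22.6 against 7.65 and 6.22 (0.0262). Omitting a CD49b+ library ended both calls (0.452 and 0.170 for Uba7, 0.0911 and 0.181 for Ube2l6), as did the lack of an RPKM minimum (0.0723 and 0.0548).

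**Figure D2:**
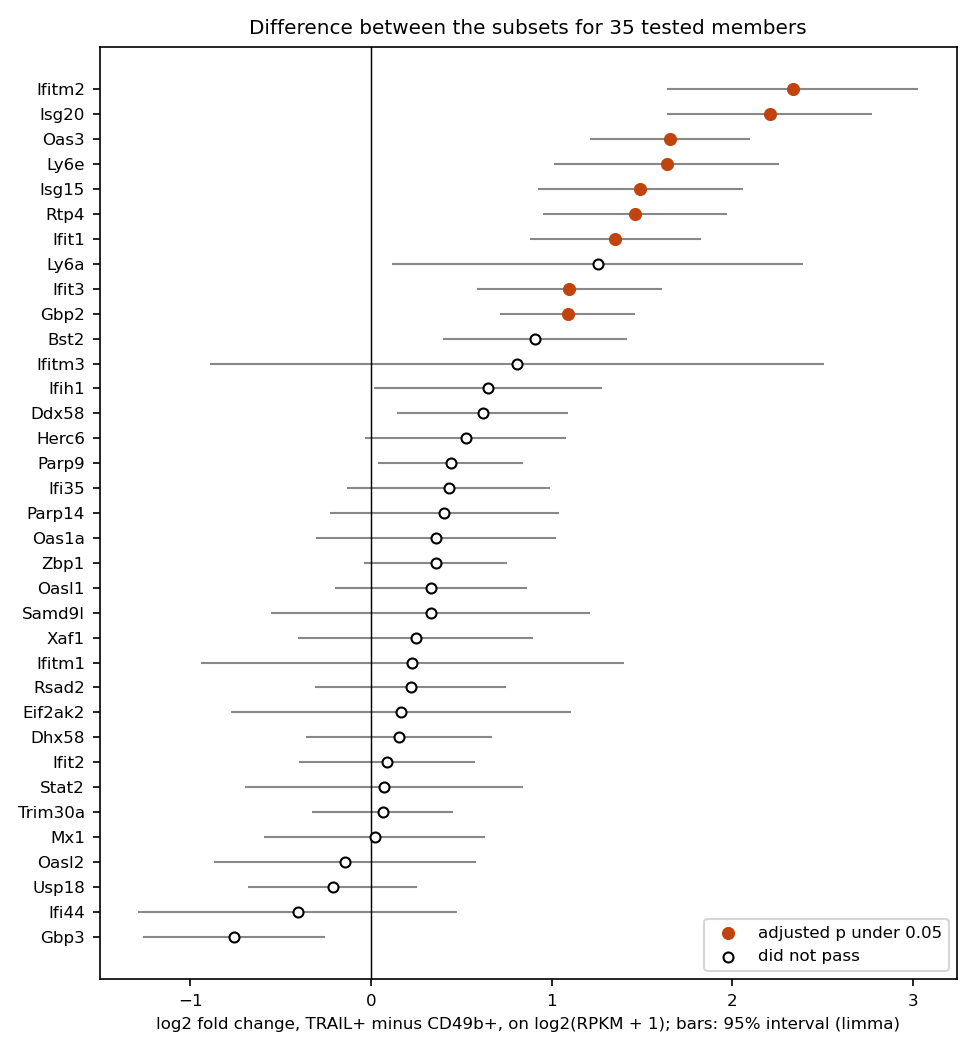
Log2 fold change, TRAIL+ minus CD49b+, with its 95% interval in limma, for the 35 tested genes in order of size. The 9 genes that rose (filled) lie between 1.09 for Gbp2 and 2.33 for Ifitm2, and Gbp3 has the lowest value, -0.76.

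Of 3 tested interferon-inducible GTPases, 1 rose. This was Gbp2, a guanylate-binding protein that coats the vacuoles of intracellular microbes, which stood at 74.4 and 74.9 RPKM in TRAIL+ and 35.5 and 33.6 in CD49b+ cells (2.16-fold, log2 fold change 1.09 ± 0.15, limma adjusted p = 0.0114). Gbp3, its neighbour in the Gbp cluster, stood at 13.6 and 17.6 against 25.0 and 29.1 RPKM, so that both CD49b+ libraries were higher. At -0.76 ± 0.20 in log2 it did not pass (limma adjusted p = 0.0913), but did without TRAIL+ replicate 2 (0.0275). The ratio of Gbp2 to Gbp3 was 5.46 and 4.24 in TRAIL+ and 1.42 and 1.16 in CD49b+ libraries. Of the other Gbp genes, Gbp6, Gbp8 and Gbp9 rose, by 3.44-fold, 2.23-fold and 3.01-fold. Omitting CD49b+ replicate 2 ended these calls (limma adjusted p = 0.0983, 0.107 and 0.0714), and omitting CD49b+ replicate 1 ended those of Gbp8 and Gbp9 (0.212 and 0.0522). Gbp4, Gbp5, Gbp7 and Gbp10 did not pass, and Gbp4 did with TRAIL+ replicate 2 omitted (0.0160). Mx1, which blocks influenza virus, stood at 2.22 and 1.504 against 1.90 and 1.70 RPKM. Mx2 had 5 reads in TRAIL+ cells, 4 of them in replicate 1, against 0 in CD49b+ cells, and was not tested. Both Mx genes carry disabling mutations in C57BL/6 mice.

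**Figure D3:**
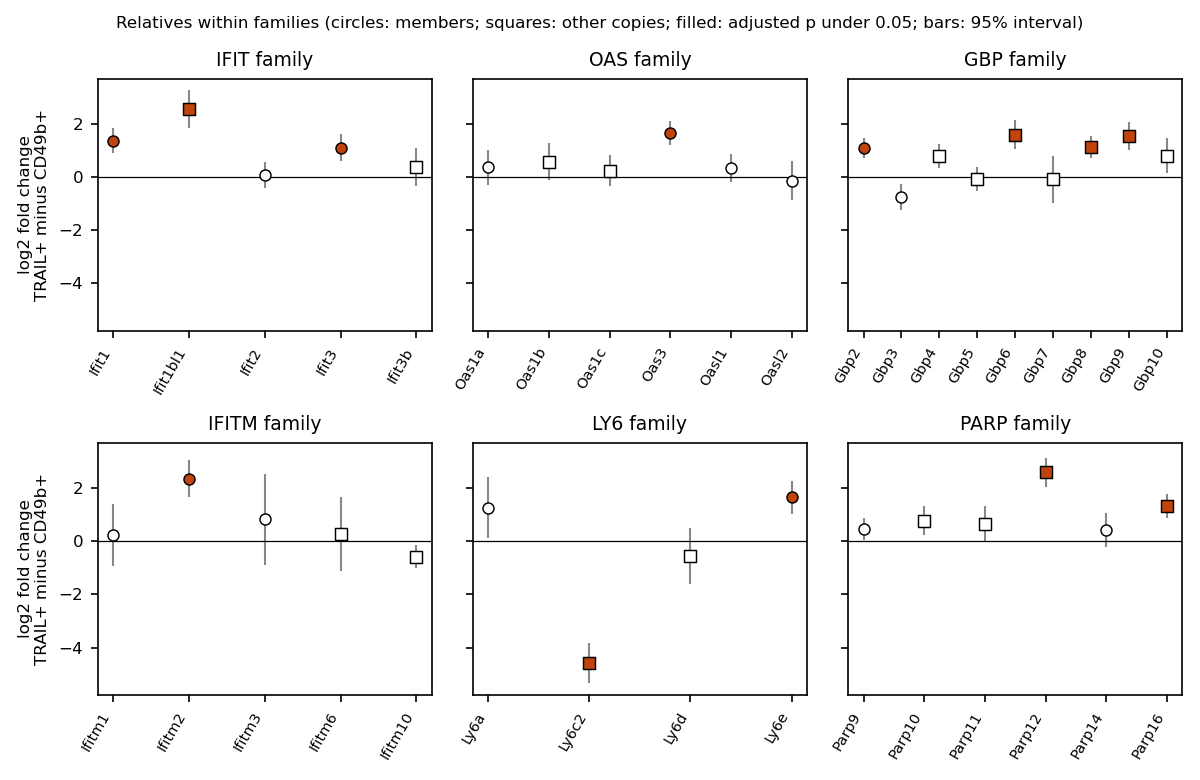
Log2 fold change, TRAIL+ minus CD49b+, with its 95% interval, for tested genes of 6 families (circles: genes of the list; squares: other family copies; filled: adjusted p below 0.05 in limma). Within the IFIT, OAS, GBP, IFITM, LY6 and PARP families some genes passed the test and others did not, and Ly6c2 lies far below 0.

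Effectors outside these families included the other large changes. Isg20, an exonuclease that degrades single-stranded RNA, stood at 15.5 and 19.6 RPKM in TRAIL+ and 3.42 and 2.60 in CD49b+ cells, 5.82-fold apart, and rose by 2.21 ± 0.23 in log2 (limma adjusted p = 0.00455). Rtp4, a chaperone for receptors that also binds viral RNA and curbs flavivirus replication, stood at 40.0 and 54.4 against 15.8 and 16.8 (2.90-fold, 1.46 ± 0.20, limma adjusted p = 0.0118). In both genes the subsets were clearly separate. Trim30a, a ubiquitin ligase that restrains NF-kappaB signalling, was level across the libraries, at 56.4 and 58.1 against 51.6 and 57.9 RPKM, with a 95% interval of its log2 fold change of -0.33 to 0.46. Ifi35, a partner of Nmi, stood at 49.2 and 69.2 against 38.9 and 47.6, and Xaf1, a partner of the apoptosis inhibitor XIAP, at 9.05 and 10.6 against 6.44 and 10.2. Rsad2, or viperin, which makes a chain-terminating nucleotide, was low, at 2.72 and 2.65 against 2.18 and 2.15. Ifi44 was also low, at 0.590 and 1.99 against 1.86 and 1.92 RPKM. These 5 did not pass, with limma adjusted p of 0.392 to 0.898.

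RNA sensors did not pass in any of 5 cases, all with positive log2 fold changes, 0.16 to 0.65. Ddx58, which encodes RIG-I, was the most abundant helicase sensor, at 51.0 and 39.6 RPKM in TRAIL+ and 30.3 and 27.6 in CD49b+ cells. Its subsets did not overlap (0.62 ± 0.19, limma adjusted p = 0.136), and it passed without TRAIL+ replicate 2 (0.0324). Ifih1, or MDA5, stood at 8.61 and 5.92 against 4.69 and 3.77 RPKM, again without overlap (limma adjusted p = 0.239). Dhx58, or LGP2, which tunes both sensors, stood at 10.9 and 9.04 against 9.64 and 8.07, and its groups overlapped. Zbp1, a sensor of Z-form nucleic acid that can trigger necroptosis, stood at 53.6 and 48.8 against 37.9 and 41.5 RPKM (limma adjusted p = 0.304). Eif2ak2, the kinase PKR that halts translation, stood at 10.01 and 4.32 against 6.42 and 5.27, with the TRAIL+ libraries on either side of CD49b+.

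Stat2 and several long genes differed more between the TRAIL+ replicates than between subsets. Stat2, the signal transducer of the ISRE-binding complex, stood at 12.6 and 6.64 RPKM in TRAIL+ and 8.72 and 8.63 in CD49b+ cells (0.07 ± 0.31, limma adjusted p = 0.948). Parp14, a large ADP-ribosyltransferase, stood at 46.2 and 28.6 against 27.5 and 26.8, and passed only without TRAIL+ replicate 2 among the left-out libraries (adjusted p = 0.0398, against 0.496 with all). Samd9l, a growth-restraining antiviral factor, stood at 42.2 and 22.05 against 29.2 and 19.8 RPKM. Parp9, partner of the ligase Dtx3l, was steadier, at 25.7 and 24.9 against 17.8 and 19.0 (0.44 ± 0.16, limma adjusted p = 0.206). All 8 tested genes of the list with at least 4000 bases were lower in TRAIL+ replicate 2 than in replicate 1. After a gene length correction, an alternative added once the data had been seen, 11 genes rose, with Bst2 and Ddx58 added, and Gbp3 fell (limma adjusted p = 0.0235, 0.0263 and 0.0428). Over all genes the same correction gave 687 higher and 589 lower calls, against 478 and 388 without it.

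**Figure D4:**
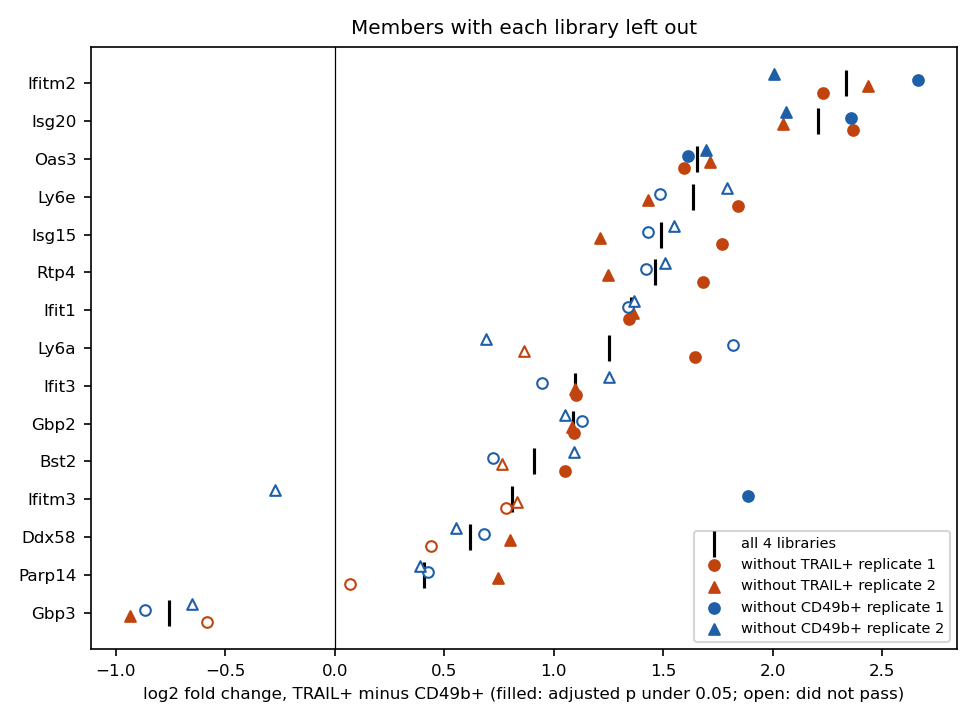
Log2 fold change, TRAIL+ minus CD49b+, for 15 genes of the list with all 4 libraries (bar) and with each library left out (filled: adjusted p below 0.05; open: did not pass; colour and shape give the library left out). Ifitm2, Isg20 and Oas3 stay filled throughout, and Ifitm3 spans 0.

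The signalling chain above these genes moved in both directions. Of 19 tested signalling genes of 21 listed, 2 rose and 5 fell, and these counts were 0 and 1 or 0 and 2 with a CD49b+ library omitted, 3 and 5 or 2 and 5 with TRAIL+ replicate 1 or 2 omitted, and 1 and 2 with no RPKM minimum. Over all tested genes the shares were 4.76% and 3.86%. Type I receptor chains stood close to level for Ifnar1, at 22.9 and 18.2 RPKM in TRAIL+ and 22.1 and 21.5 in CD49b+ cells, and apart for Ifnar2, at 54.7 and 58.6 against 34.7 and 34.5 (limma adjusted p = 0.0529). The interferon gamma receptor gene Ifngr1 fell, at 182 and 199 against 537 and 627 RPKM (-1.60 ± 0.19 in log2, limma adjusted p = 0.00688), and its partner Ifngr2 lay at 0.122 to 1.06 RPKM in all libraries and was not tested. Among the kinases, Jak1 fell at 241 and 162 against 522 and 423 RPKM (limma adjusted p = 0.0441) and Tyk2 at 36.9 and 25.6 against 81.9 and 67.1 (0.0310), whereas Jak2 rose, at 69.3 and 49.1 against 26.7 and 23.2 (0.0294). Omitting a CD49b+ library ended the calls of Ifngr1 (0.0658 and 0.107), Jak1 (0.363 and 0.178), Tyk2 (0.212 and 0.0950) and Jak2 (0.118 and 0.204). With no RPKM minimum those of Jak1 (0.0843), Tyk2 (0.0588) and Jak2 (0.0543) ended too. The most abundant signalling genes that did not pass were Il10rb, Irf1 and Ptpn6. Irf9, the DNA-binding part of the ISRE-binding complex, stood at 38.1 and 44.3 against 29.2 and 33.1 RPKM and did not pass (limma adjusted p = 0.301).

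Feedback and regulatory factors of the chain went both ways. Socs1, an inhibitor of JAK kinases, rose, at 98.4 and 107 against 55.9 and 60.6 RPKM (limma adjusted p = 0.0360), and Socs3, an inhibitor that acts mainly on gp130 receptors, fell, at 21.2 and 9.21 against 79.0 and 51.6 (0.0371). Omitting a CD49b+ library ended the Socs1 call (0.493 and 0.337), and that of Socs3 ended with CD49b+ replicate 1 omitted (0.0977) or with no RPKM minimum (0.0817). Irf8, a factor of NK cell and myeloid development, fell 6.96-fold, at 69.0 and 63.6 against 488 and 435 RPKM (limma adjusted p = 0.000916). Irf7, itself an interferon-stimulated gene, stood at 47.1 and 47.5 against 39.2 and 41.7 and did not pass. Of 13 tested sensing adaptors and factors upstream of interferon, the most abundant being Sting1, Myd88 and Irf3, 0 passed in limma, 1 had an unadjusted p below 0.05, and voom called 0. Irf5, which acts below Toll-like receptors, was that gene, at 30.3 and 23.6 against 14.9 and 13.6 RPKM (limma adjusted p = 0.0576, and 0.0175 with TRAIL+ replicate 2 omitted).

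Transcripts of type I interferons themselves were close to absent. Of 19 interferon genes listed, 16 had 0 reads in all 4 libraries, Ifnb1 among them, Ifnab stood at 0.366 RPKM in TRAIL+ replicate 1 only, and Ifnz at 0.174 in CD49b+ replicate 2 only. Ifng, the interferon that NK cells are known for, was abundant, at 200 and 142 RPKM in TRAIL+ and 230 and 170 in CD49b+ cells. Its groups overlapped, with a log2 fold change of -0.22 ± 0.25 and a 95% interval of -0.85 to 0.41.

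A wider list of other interferon-induced genes, none of them among the 37, held 61 tested genes, of which 10 rose and 2 fell, with a median log2 fold change of 0.51. This compares with 4.76% and 3.86% of all genes. The largest rises were Tgtp1, a GTPase of the IRG family, at 20.7 and 21.8 against 2.27 and 2.17 RPKM (9.57-fold, limma adjusted p = 0.00120), and Parp12, an ADP-ribosyltransferase, at 11.1 and 11.3 against 1.24 and 0.863 (10.7-fold, limma adjusted p = 0.00264). Both were called with any single library left out. Also among the 10 were the IRG GTPases Irgm2 (2.81-fold) and Igtp (2.56-fold), with limma adjusted p of 0.159 and 0.0339, and of 0.114 and 0.0655, when a CD49b+ library was omitted. With no RPKM minimum Irgm2 was not called (0.0582). The 2 that fell were Phf11b (2.01-fold) and Cd47 (1.86-fold), the latter a signal against engulfment. Omitting a CD49b+ library ended both calls (0.269 and 0.244 for Phf11b, 0.271 and 0.436 for Cd47), as did the lack of an RPKM minimum (0.0502 and 0.0561). The 10 and 2 became 4 and 0 or 3 and 0 with a CD49b+ library omitted, and 18 and 2 or 15 and 2 with TRAIL+ replicate 1 or 2 omitted. With no RPKM minimum they were 6 and 0. Highly abundant members did not pass, such as B2m at 7071 and 10351 against 5212 and 6314 RPKM (limma adjusted p = 0.563) and the immunoproteasome gene Psmb8 at 425 and 691 against 315 and 385 (0.320). The GTPase Ifi47 stood at 331 and 515 against 197 and 257 (0.152). With TRAIL+ replicate 1 omitted, Psmb8 (0.0249) and Ifi47 (0.0128) passed.

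Family copies of the 37 held 39 tested genes, of which 6 rose and 1 fell (3 and 1 or 2 and 1 with a CD49b+ library omitted, 6 and 3 or 11 and 1 with TRAIL+ replicate 1 or 2 omitted). Their most abundant genes that did not pass were Stat6, Stat4 and Stat3. In number, 10 of the copies with a row are also in the wider list. Of the 29 tested copies outside it, 2 rose (Ifit1bl1 and Parp16) and 1 fell (Ly6c2). Over all tested genes 4.76% rose and 3.86% fell, so the 2 and 1 of 29 lie near those shares. Parp16, a tail-anchored ADP-ribosyltransferase of the endoplasmic reticulum, stood at 17.7 and 15.7 against 6.17 and 6.13 RPKM (2.71-fold, limma adjusted p = 0.0121), a call that ended with a CD49b+ library omitted (0.119 and 0.122).

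**Figure D5:**
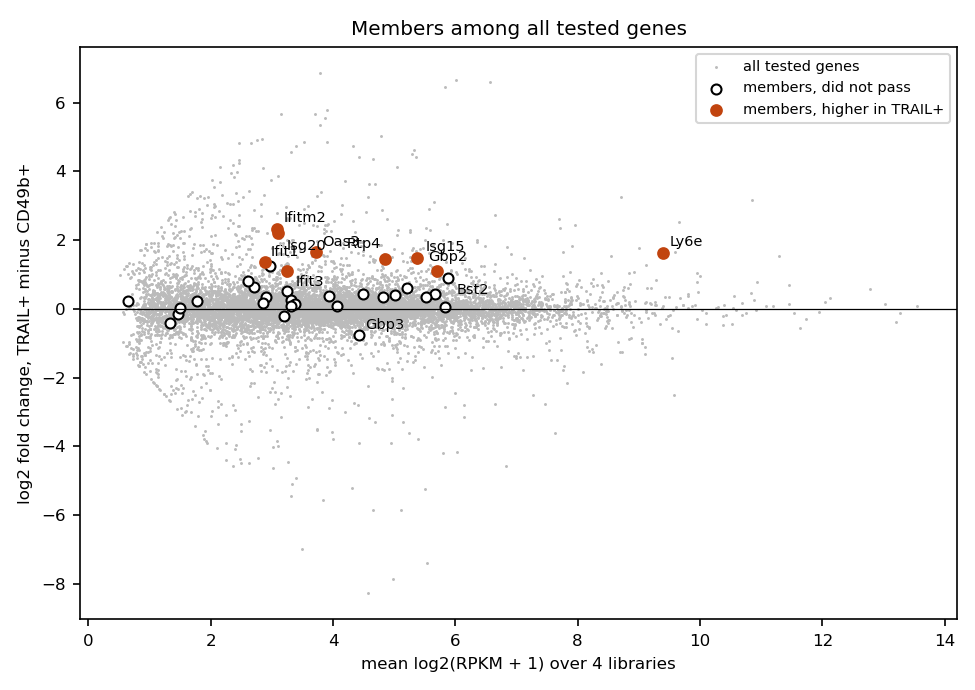
Log2 fold change, TRAIL+ minus CD49b+, against mean log2(RPKM + 1) over the 4 libraries, for 10047 tested genes (grey) and the 35 tested genes of the list (filled: rose; open: did not pass). Most of the 35 lie above 0, well inside the range of the largest changes in the series, and Ly6e stands apart by its level.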

How the data were processed

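Liver cells were enriched on Percoll, freed of red cells and sorted, per the labels' protocols, and groups are those of the titles. Per the file headers, the authors deposited RPKM. The submitters' processing notes name TopHat 1.4.1 and build mm9. How reads were counted, with which annotation and strand, is not given in the sources used here. Overlapping genes thus cannot be told apart. Rows were named by RefSeq accession (20661), symbol (191) or synonym (65) of GRCm38.p6, and 108 kept the name in the file. Reads were recovered from exact ratios of RPKM, whole within 1e-06 for 100% of 13681 rows above 0. The gene length this implies was within 10% of the annotated length for 81.1% of 10859 comparable rows, so reads of the rest are less certain.

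Limma 3.58.1 in R 4.3.3 (trended prior, 2 residual and 3.51 prior degrees of freedom) was fitted on log2(RPKM + 1) over all genes with at least 1 RPKM in 2 libraries. The code was also run on simulated reads, drawn independently for each library with the same dispersion for all genes. The real replicates differ from that, so the run does not show how well the calls hold here. RPKM is not a count, so voom on recovered reads was an alternative only. The others were pseudocount, RPKM minimum, median centring, replicate block, left-out libraries and, added after seeing the data, a gene length correction. The members and lists were chosen with earlier results of these data known. All members are given; from other lists, called genes by size of change (up to 6 a direction), abundant genes, ligands and receptors were named. Uba7, Igtp, Irf5, Irf7, Irf9, Gbp4, Gbp5, Gbp7, Gbp8, Gbp10, Siglech, Pacsin1, Cd8a, Cd4, Trat1, Cd3g, Cd5, Cd6 and Cd8b1 were chosen after their values were seen. Values of 2 further genes are not reported here. With 2 against 2 libraries the smallest exact permutation p is 0.333 (two-sided), so no such test was used.

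Marker lists of other cells gave summed levels over the 4 libraries of 54.1 to 222 RPKM for dendritic cells (Cd74 and H2-Aa most abundant, 1 of 4 tested higher), 12.2 to 23.3 for B cells (Cd79b and Cd79a, 0 of 3 called), 0.644 to 28.8 for neutrophils (S100a9 and Retnlg, 0 of 3), 1.28 to 21.9 for hepatocytes (Alb and Apoa2, 0 of 4), 41.4 to 53.0 for endothelial cells (Pecam1 and Stab2, 0 of 1) and 5.73 to 110 for erythroid cells (Hbb-b1 and Alas2, 0 of 2). The 12 NK and innate lymphoid markers, all tested, had 3 higher and 3 lower, with Gzma and Nkg7 the most abundant. They include the sort genes Tnfsf10 (higher) and Itga2 (lower), whose calls follow from the sort. Of these lists with 0 called in limma, B cells and hepatocytes each had 1 gene at an unadjusted p below 0.05, the others 0, and voom called 0 in each.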

Additional observations from a re-analysis of the deposited data

How the results depend on the processing

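Pseudocounts of 0.1 and 5, an RPKM minimum of 5, median centring and voom on recovered reads each called 9 genes of the list higher and 0 lower, and no RPKM minimum called 8. With 1 library left out, the number higher ranged from 3 to 11 and the number lower from 0 to 1, the median log2 fold change from 0.41 to 0.69, and calls over all genes from 245 to 777 higher and 198 to 763 lower. The gene length correction gave 1 lower gene of the list (Gbp3) and 589 lower over all genes. Fits with fewer libraries had 1 fewer residual degree of freedom, and their residual spread came only from the group left with 2 libraries. Between replicates, chi-square per degree of freedom on recovered reads was 27.6 in TRAIL+ and 8.29 in CD49b+ cells. With a CD49b+ library omitted, the 6 genes that lost their call had log2 fold changes of 0.94 (Ifit3) to 1.79 (Ly6e). With all libraries these were 1.09 (Gbp2) to 1.64 (Ly6e). Otherwise the cause of the changed counts was not tested. A left-out library leaves a group with 1 library, which is assumed to vary like the others.

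With a replicate block, calls over all genes were 1049 higher and 833 lower, and in the list 11 higher (Bst2 and Ddx58 added) and 1 lower (Gbp3). They were 5 and 5 among signalling genes (2 and 5 without the block), 28 and 2 among other interferon-induced genes (10 and 2), 12 and 2 among family copies (6 and 1), and 2 and 0 among Kupffer cell and monocyte markers (0 and 0). Replicate numbers are shared labels only. Across genes, deviations of same-numbered libraries from their group means had a correlation of 0.563.

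Depth limits Ifitm2, Isg20 and Ly6a (15, 29 and 31 reads in CD49b+ cells) and Ifi44 (29 reads in TRAIL+ cells). It also limits Ifitm3, with 24 and 3 reads in CD49b+ replicates 1 and 2. At 5 or fewer reads a group, it limits Ifitm1, Mx2 and Oas2.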

Other observations

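Differences between replicates of the same subset went with gene length in the list in TRAIL+ cells. In CD49b+ cells the relation was weaker, and its sign in the list was opposite to that over all tested genes. Over the 35 tested genes, log2 gene length and the log2 difference of replicate 2 from replicate 1 had a Pearson r of -0.63 in TRAIL+ cells, and -0.51 over all tested genes. In CD49b+ cells these were 0.38 in the list and -0.28 over all tested genes. The 0.38 includes short genes with few reads that were lower in CD49b+ replicate 2. Among them were Ifitm3 (24 and 3 reads in CD49b+ replicates 1 and 2), Ifitm2 (10 and 5) and Ly6a (23 and 8). Isg15, Bst2 and Ifi35, also short, were higher in CD49b+ replicate 2. How far the 0.38 rests on the genes with few reads was not tested. The points of each r share their libraries, and genes are not independent replicates, so these are descriptions. Of 8 tested genes of the list below 1500 bases, 6 were higher in TRAIL+ replicate 2 than in replicate 1, and 3 in CD49b+ replicate 2. Of the 8 with at least 4000 bases, 8 were lower in TRAIL+ replicate 2, and 6 in CD49b+ replicate 2.

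Summed markers of Kupffer cells and monocytes, neutrophils, hepatocytes and erythroid cells were higher in replicate 1 than in replicate 2 of both subsets. So were those of dendritic cells, plasmacytoid dendritic cells, B cells and endothelial cells. Those of T cells were not, at 73.3 and 134 RPKM in TRAIL+ and 17.8 and 15.0 in CD49b+ replicates 1 and 2. Lyz2, a macrophage and neutrophil gene, stood at 81.9 and 9.21 RPKM in TRAIL+ replicates 1 and 2 and at 122 and 8.87 in CD49b+ replicates 1 and 2. Albumin (Alb) stood at 12.7 and 1.92, and at 14.8 and 0.865. Ifitm3 stood at 7.18 and 6.91 RPKM in TRAIL+ replicates 1 and 2, and at 8.72 and 1.17 in CD49b+ replicates 1 and 2. The part of such other cells in the values of Ifitm3 was not tested.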
